A study of Mus musculus with 12 samples.

Results

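The replication-dependent histone genes are the 26 genes that had a transcript cluster of their own on the array and carried a symbol of the clustered core histones H2A, H2B, H3 and H4 or of linker histones H1f1 to H1f6. They were 26 of 22180 named genes tested. The rule that picks the members reads symbols and no measured value, and a gene with several clusters was read from the brightest. Only H2ac21 had more than 1 (2 clusters). The members comprised 5 H1, 6 H2A, 8 H2B and 7 H4 genes, of which 21 lie on chromosome 13 and 5 on chromosome 3. Another 37 genes of the same symbols had only clusters annotated to several genes, among them all 12 H3 genes, so H3 had no member.

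RNA came from E14, a mouse embryonic stem cell line, transduced with a short hairpin RNA against LOXL2 (shLOXL2) or a control hairpin (shCT). LOXL2 is a lysyl oxidase family enzyme. The 4 groups of 3 arrays were shLOXL2 with RA at day 1, shLOXL2 without RA at day 0, shCT with RA at day 1 and shCT without RA at day 0. RA is read here as retinoic acid, an inducer of differentiation, and all groups carried a hairpin. Untreated cells at day 1 were not among the groups, so RA and a day of culture cannot be told apart, and the labels name neither the number of hairpins nor of clones. Separate cultures behind the 3 arrays are not stated in the labels. The p-values therefore cover the spread between arrays alone, which could be technical.

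These genes encode the histones that package newly copied DNA, and their transcription peaks in S phase. Their messenger RNAs usually end in a stem-loop bound by the protein encoded by Slbp instead of a poly(A) tail, and they are degraded when replication stops. The genes sit in tandem clusters as near-identical copies, and many H2A and H2B genes are transcribed away from each other from a shared stretch of promoter. Embryonic stem cells divide rapidly and spend much of their cycle in S phase. A few members depart from this scheme: H2ac1 (formerly Hist1h2aa) and H2bc1 (Hist1h2ba) encode the testis-type H2A and H2B that enter chromatin during spermatogenesis, H1f6 (Hist1h1t) encodes the testis linker histone, and H2bc21 (Hist2h2be) encodes an H2B known from olfactory neurons. Because copies resemble each other, the share of each signal that comes from a related copy was not tested, and values of single genes are uncertain to that degree.

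Promoter sequence was available for 24 of the 26 members in the RefSeq table of assembly GRCm38.p6, as windows from 250 bases before to 50 bases after each start, 300 bases long. No entry was found for H2bc21 and H4c14. The octamer ATTTGCAT, searched on both strands, stood in 8 of 24 windows, against 1.74% of 32851 windows of all genes. It was in 3 of 6 H2A and 5 of 7 H2B windows and in none of the 5 H1 or 6 H4 windows. CCAAT stood in 19 of 24 windows (37.4% of all windows), covering all 5 H1, 6 H2A and 7 H2B genes but 1 of 6 H4 genes. TATAAA stood in 16 of 24 (13.6% of all). The hexamer AGGTCA, the core of retinoid receptor sites, stood in 1 of 24, that of H2bc22 (16.3% of all). A repeat of AGGTCA in the same direction after 2 or 5 bases stood in 0 of 24, against 0.00913% of all windows for each spacing. TTTCCCGC, a site form of the E2F factors, stood in 1 of 24, that of H4c1 (1.07% of all). Such matches describe letters and do not show binding, and the absence of one covers only this window.

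The windows of 4 genes are shown because the comparisons turn on them. H2ac1 and H2bc1 were the only members that passed the test for RA, H2ac21 had the lowest fitted change with RA, and H2bc12 had the smallest p for the knockdown. Capitals mark ATTTGCAT, CCAAT and TATAAA on either strand, so that ATGCAAAT, ATTGG and TTTATA are the same motifs read from the other strand. H2ac1 is on the plus strand at chr13:23934187-23934486, H2bc1 on the minus strand at chr13:23934107-23934406, H2bc12 on the plus strand at chr13:22035571-22035870 and H2ac21 on the plus strand at chr3:96219635-96219934, each read 5′ to 3′ along its gene.
H2ac1: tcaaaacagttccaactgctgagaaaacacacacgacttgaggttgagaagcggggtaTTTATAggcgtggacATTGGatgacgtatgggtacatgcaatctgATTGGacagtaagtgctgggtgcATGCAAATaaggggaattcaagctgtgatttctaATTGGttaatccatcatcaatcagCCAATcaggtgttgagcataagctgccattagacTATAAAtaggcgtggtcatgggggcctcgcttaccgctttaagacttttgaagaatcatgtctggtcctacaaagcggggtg
H2bc1: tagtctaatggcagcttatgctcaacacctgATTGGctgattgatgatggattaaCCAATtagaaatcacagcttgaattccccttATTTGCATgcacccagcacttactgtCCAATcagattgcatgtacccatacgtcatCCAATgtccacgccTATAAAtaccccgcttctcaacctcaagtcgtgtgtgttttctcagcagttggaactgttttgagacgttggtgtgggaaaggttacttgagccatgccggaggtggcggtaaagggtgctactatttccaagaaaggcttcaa
H2bc12: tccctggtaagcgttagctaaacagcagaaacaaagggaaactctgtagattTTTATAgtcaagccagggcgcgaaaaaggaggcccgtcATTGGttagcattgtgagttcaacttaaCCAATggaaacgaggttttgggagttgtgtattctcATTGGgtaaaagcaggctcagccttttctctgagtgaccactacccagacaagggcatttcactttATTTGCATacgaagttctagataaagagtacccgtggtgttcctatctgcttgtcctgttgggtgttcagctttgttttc
H2ac21: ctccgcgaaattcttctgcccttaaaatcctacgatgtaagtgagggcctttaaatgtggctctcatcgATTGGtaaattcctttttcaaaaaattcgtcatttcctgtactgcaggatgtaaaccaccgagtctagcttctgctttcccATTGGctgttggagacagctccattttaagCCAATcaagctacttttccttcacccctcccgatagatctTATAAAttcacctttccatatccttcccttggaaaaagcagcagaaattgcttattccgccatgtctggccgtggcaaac

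H2ac1 and H2bc1 are transcribed away from each other, with starts 281 bases apart. Their windows overlap by 220 bases and hold the same octamer, which begins at position -124 from the H2ac1 start and at -164 from the H2bc1 start, on opposite strands. Each of these windows held 4 CCAAT matches. Among genes with a promoter window there were 9 such divergent H2A and H2B pairs with starts close together. In 2 of them both genes were members: H2ac1 with H2bc1, and H2ac12 with H2bc12 (178 bases apart). Pairs with H2bc21 or H4c14, which had no window, could not be found this way. On chromosome 3, H2bc21 spans 96221072 to 96223738 and the member H2ac20 lies nearby at 96220413 to 96220880. Their strands were not compared, so these coordinates do not tell which of their ends are starts. The window of H2ac21 held CCAAT and TATAAA but no octamer.

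As checks of the samples, the median log2 signal of an array was 4.58 to 4.68, and correlations between arrays over 41345 clusters were 0.939 to 0.985. Both Loxl2 clusters are shared with Gm21451, a predicted gene. The first had a mean log2 signal of 5.18 in shLOXL2 and 6.09 in shCT with RA. Without RA its means were 4.94 in shLOXL2 and 5.5 in shCT. Its limma change on average was -0.74 ± 0.14 (SE), with an adjusted p of 0.28 over all clusters instead of named genes. The second had a mean of 4.796 in shLOXL2 and 5.879 in shCT with RA. Without RA its means were close, 4.766 in shLOXL2 (SD 0.232) and 4.925 in shCT (SD 0.344). Its change on average was -0.62 ± 0.16 (limma adjusted p = 0.543 over all clusters). The mean log2 signal of 10 stem cell markers, among them Pou5f1, Sox2 and Nanog, was 8.82 in shLOXL2 and 8.83 in shCT cells with RA, and 9.22 and 9.19 without. With RA on average 5 of 10 of them fell (4.8% of all genes), led by Pou5f1 (-0.56 ± 0.08), Utf1 and Zfp42. Nanog had a mean of 9.80 in both constructs with RA, and of 9.84 in shLOXL2 and 9.60 in shCT cells without. Of 9 primitive endoderm markers 2 rose (5.52% of all genes), Gata6 (1.63 ± 0.17) and Pdgfra (0.94 ± 0.24), and none fell. The mean of Afp was lower with RA in both constructs, that of Lama1 in shCT cells (8.38 against 8.60) and that of Foxa2 in shLOXL2 cells (5.90 against 5.91). The mean log2 signal of the 9 endoderm markers was 6.47 in shLOXL2 and 6.53 in shCT cells with RA, and 5.99 and 6.24 without. Of 10 feeder fibroblast markers 2 rose, Pdgfrb (1.28 ± 0.11) and Pdgfra, and none fell. Thy1, of the same list, stood at -0.48 ± 0.15 (limma adjusted p = 0.0551), and the signals of Dcn and Lum lay below every array median. The mean log2 signal of the 10 was 4.69 in shLOXL2 and 4.74 in shCT cells with RA, and 4.55 and 4.57 without. In bulk RNA fewer cells of a type and less RNA per cell cannot be told apart, and the part of these shifts in the histone values was not tested.

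With RA the testis-type pair H2ac1 and H2bc1 rose, and no other member passed the test. In limma's fit over all 22180 genes, 2 of 26 members passed an adjusted p of 0.05 for RA on average of both constructs, against 10.3% of all genes. Both were higher with RA (5.52% of all genes) and 0 members were lower (4.8% of all genes). The share of members called was therefore close to that of all genes.

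H2bc1 had log2 signals of 7.47, 7.61 and 7.40 in shLOXL2 cells with RA, against 5.96, 6.45 and 6.65 in shLOXL2 cells without RA. The shCT arrays gave 8.55, 7.74 and 7.33 with RA and 7.40, 6.76 and 5.90 without. The groups did not overlap in shLOXL2 cells, while in shCT cells the lowest array with RA lay just under the highest without. H2bc1 rose by 1.16 ± 0.24 log2 units (SE) on average, or 2.24-fold, with a limma adjusted p of 0.00705. For H2bc1 6 of 6 arrays with RA lay above the mean without RA of their construct. The share of all genes for that count was not taken. By a related count, 11.3% of all genes were higher with RA in all 6 pairs of arrays with the same number. The change was 1.14 ± 0.34 in shLOXL2 cells and 1.19 ± 0.34 in shCT cells. Neither passed on its own (limma adjusted p = 0.104 and 0.0753), but both did with a random block of construct and number (limma adjusted p = 0.0138 and 0.0096). They differed by -0.05 ± 0.49.

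H2ac1 had log2 signals of 11.08, 11.40 and 11.46 in shLOXL2 cells with RA, against 9.91, 10.65 and 10.83 without. In shCT cells it had 11.79, 11.58 and 11.11 with RA and 11.27, 10.64 and 9.91 without. As for H2bc1, the arrays separated completely in shLOXL2 cells only, and the highest shCT array without RA, replicate 1, exceeded the lowest with RA, replicate 3. H2ac1 rose by 0.87 ± 0.22 log2 units on average, or 1.83-fold (limma adjusted p = 0.0208, higher in 6 of 6 arrays, a count with no share over all genes). Its change was 0.85 ± 0.31 in shLOXL2 and 0.88 ± 0.31 in shCT cells (limma adjusted p = 0.191 and 0.148, and 0.0392 and 0.0285 with the random block), with a difference of -0.03 ± 0.44. The call of H2ac1 was lost without replicate 1 of shCT with RA (adjusted p = 0.0588), replicate 2 of shCT with RA (0.0525) or replicate 3 of shLOXL2 with RA (0.0549).

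**Figure D1:**
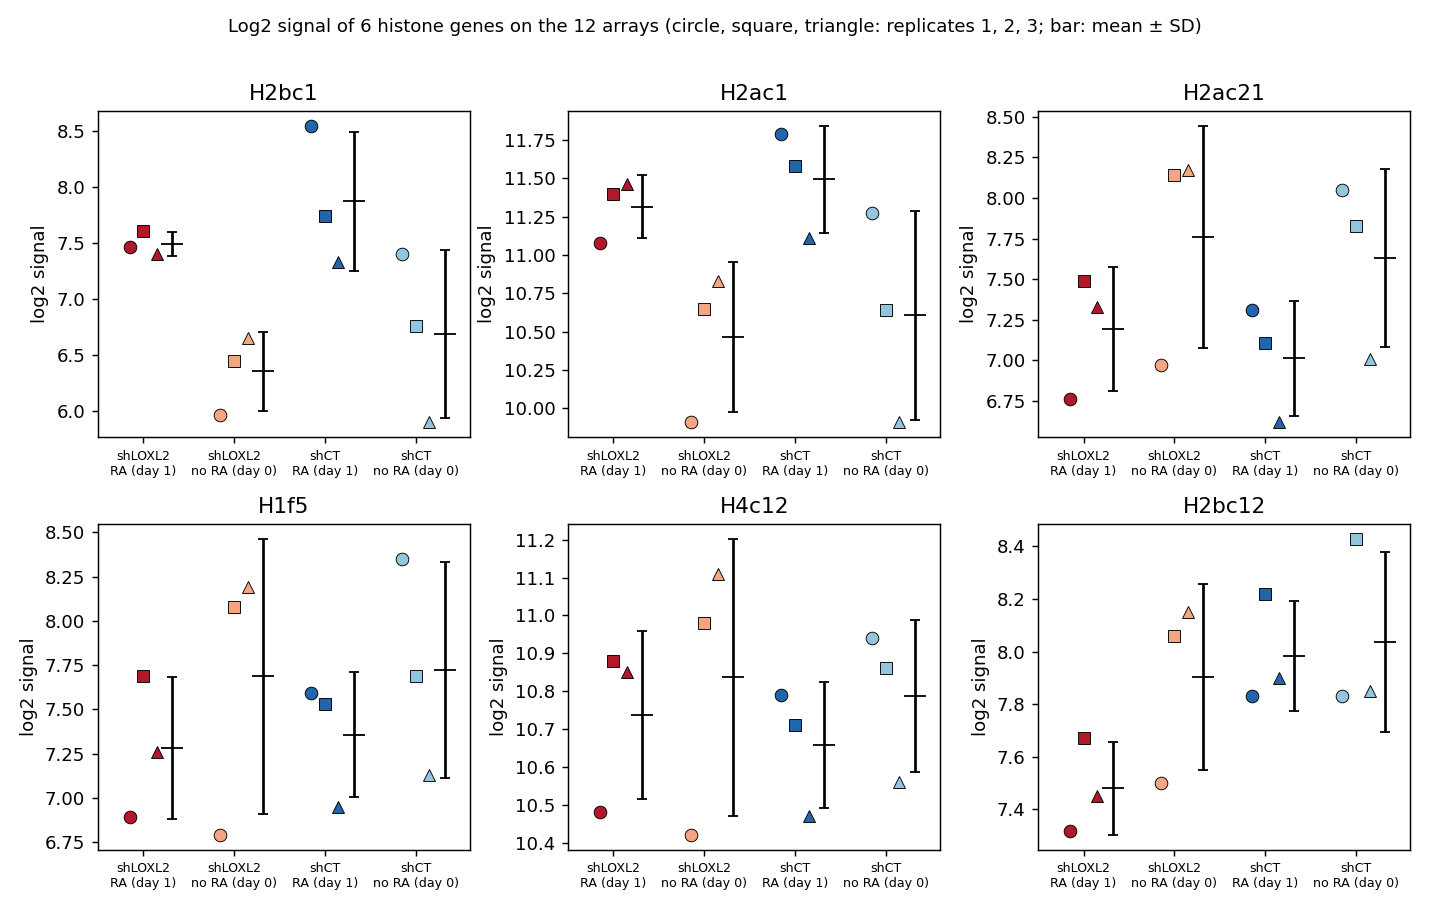
Log2 signal (vertical axes, each with its own range that does not start at 0) of H2bc1, H2ac1, H2ac21, H1f5, H4c12 and H2bc12 on the 12 arrays, by group on the horizontal axes, with the mean and SD of 3 arrays beside the points. H2bc1 and H2ac1 lie higher with RA in both constructs, H2ac21 lies lower with RA on average, and in H1f5 and H4c12 replicate 1 of shLOXL2 without RA lies well below the other arrays of its group.

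The remaining 24 members were mostly a little lower with RA, and none passed. Over all 26 members the fitted change with RA on average was below 0 for 21, against 51.5% of all genes. It was below 0 for 20 in shLOXL2 cells (51.9% of all genes) and for 23 in shCT cells (49.8% of all genes). The median change of the members was -0.133 on average, against -0.00677 for all genes, and lay between -0.247 and -0.0804 when 1 array was left out. By construct it was -0.136 in shLOXL2 cells (-0.319 to -0.0189 without 1 array) and -0.148 in shCT cells (-0.304 to -0.0474). Leaving aside H2ac1 and H2bc1, a choice made after their values were seen, it was -0.15 with a range of -0.59 to 0.175, and the smallest limma adjusted p of these 24 was 0.118. Members share arrays and deviate together, so these counts describe the set and are no test of it. The count of calls depended on the fit, for the members as for all genes. With array weights 8 members passed (26.9% of all genes). With the main axis of variation within groups as a covariate, added after seeing the data, 8 passed (20.6% of all genes). In each case the testis-type pair went upward and 6 others downward. The axis was taken from deviations from the group means, so it left the fitted changes as they were and altered only their standard errors. Its calls are therefore no separate support for the changes. A random block of construct and number gave 4 (17.5% of all genes) and a fixed block, also added later, 5 (16.6% of all genes), the pair upward and the others downward. With a minimum fold of 1.2 none passed (2.55% of all genes).

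Within single constructs no member passed limma's test for RA in the reported fit, which has no block. Some other fits did call members. Array weights called 4 in shLOXL2 (12% of all genes) and 7 in shCT cells (23.6% of all genes). The axis as a covariate called 4 (9.96% of all genes) and 3 (11.1% of all genes), again with the fitted changes unmoved. With only the groups compared, 1 passed in shLOXL2 cells, H2bc1 (2.61% of all genes). The random block of construct and number called 2 in each construct, H2ac1 and H2bc1, against 7.55% of all genes in shLOXL2 and 9.23% in shCT cells. In the reported fit, 0 of 26 passed in shLOXL2 cells (3.46% of all genes) and 4 had an unadjusted p under 0.05 (14.4% of all genes). The arrays of 3 members lay wholly above those without RA (10.3% of all genes): H2ac1, H2bc1 and H2bc21, the last by a gap of under 0.01 log2 units. In shCT cells 0 of 26 passed (4.25% of all genes), 4 had an unadjusted p under 0.05 (16.5% of all genes), and the arrays of 1, H2bc22, lay wholly below (10.5% of all genes).

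Among the H2A genes, which encode one partner of the H2A-H2B dimer, 5 of 6 had lower fitted values with RA. H2ac21 had 6.76, 7.49 and 7.33 in shLOXL2 cells with RA, against 6.97, 8.14 and 8.17 without. Its shCT values were 7.31, 7.11 and 6.62 with RA and 8.05, 7.83 and 7.01 without. In both constructs the groups overlapped because the lowest array without RA lay within the range with RA. The change of H2ac21 was -0.59 ± 0.24 on average (limma adjusted p = 0.154). Its other, dimmer cluster gave -0.205. H2ac15 changed by -0.46 ± 0.17 (limma adjusted p = 0.118), H2ac12 by -0.40 ± 0.21 and H2ac20 by -0.39 ± 0.21. In all 4 of these genes 0 of 6 arrays with RA lay above the mean without RA of their construct. The share of all genes for that count was not taken. By a related count, 10.5% of all genes were lower with RA in all 6 pairs of arrays with the same number. H2ac12 had a mean log2 signal of 2.44, below every array median, and no background level was set here. H2ac10, the H2A member with the highest signal, changed by -0.09 ± 0.15.

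Among the 8 H2B genes, H2bc1 rose, H2bc21 had a positive fitted change and the other 6 had negative ones. H2bc21 and H2bc22 had mean log2 signals of 3.70 and 4.10, below every array median. H2bc21 had log2 signals of 3.73, 3.94 and 3.99 in shLOXL2 cells with RA, against 3.56, 3.28 and 3.73 without. The shCT arrays gave 3.59, 3.72 and 3.78 with RA and 3.43, 3.99 and 3.71 without, where the groups overlapped. Its change was 0.36 ± 0.16 in shLOXL2 and -0.01 ± 0.16 in shCT cells (limma adjusted p = 0.313 and 0.983), with an average of 0.17 ± 0.11. H2bc22 had 3.95, 4.39 and 4.06 in shLOXL2 cells with RA, against 4.29, 3.96 and 4.26 without. In shCT cells it had 4.0, 3.6 and 3.85 with RA and 4.37, 4.36 and 4.09 without. Its change was -0.04 ± 0.16 in shLOXL2 and -0.45 ± 0.16 in shCT cells (limma adjusted p = 0.951 and 0.148). H2bc18, the H2B member with the highest signal on average, changed by -0.30 ± 0.20. For it 0 of 6 arrays with RA lay above the mean without RA, a count with no share over all genes. H2bc3, H2bc9, H2bc12 and H2bc14 had changes between -0.28 and -0.12, each smaller than 2 standard errors.

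The 5 H1 genes, which encode linker histones that bind between nucleosomes, had changes with RA of -0.386 to -0.109. H1f5 had log2 signals of 6.89, 7.69 and 7.26 in shLOXL2 cells with RA, against 6.79, 8.08 and 8.19 without. Its shCT values were 7.59, 7.53 and 6.95 with RA, against 8.35, 7.69 and 7.13 without. The groups overlapped in both constructs, and the change of -0.39 ± 0.26 did not pass (limma adjusted p = 0.437). H1f2, with the highest signal of the class, changed by -0.13 ± 0.21, H1f1 by -0.26 ± 0.21 and H1f3 by -0.14 ± 0.15. The testis linker histone gene H1f6 changed by -0.11 ± 0.24 (limma adjusted p = 0.851).

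The 7 H4 genes, whose products pair with H3 in the nucleosome core, had changes with RA of -0.164 to 0.0591. H4c14 had -0.16 ± 0.12, H4c1 -0.12 ± 0.18, H4c12 -0.12 ± 0.13 and H4c8 -0.09 ± 0.14. H4c17, H4c2 and H4c9 lay within 0.06 of 0. H4c12 had 10.48, 10.88 and 10.85 in shLOXL2 cells with RA, against 10.42, 10.98 and 11.11 without. The shCT arrays gave 10.79, 10.71 and 10.47 with RA, against 10.94, 10.86 and 10.56 without, and the groups overlapped in both constructs.

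**Figure D2:**
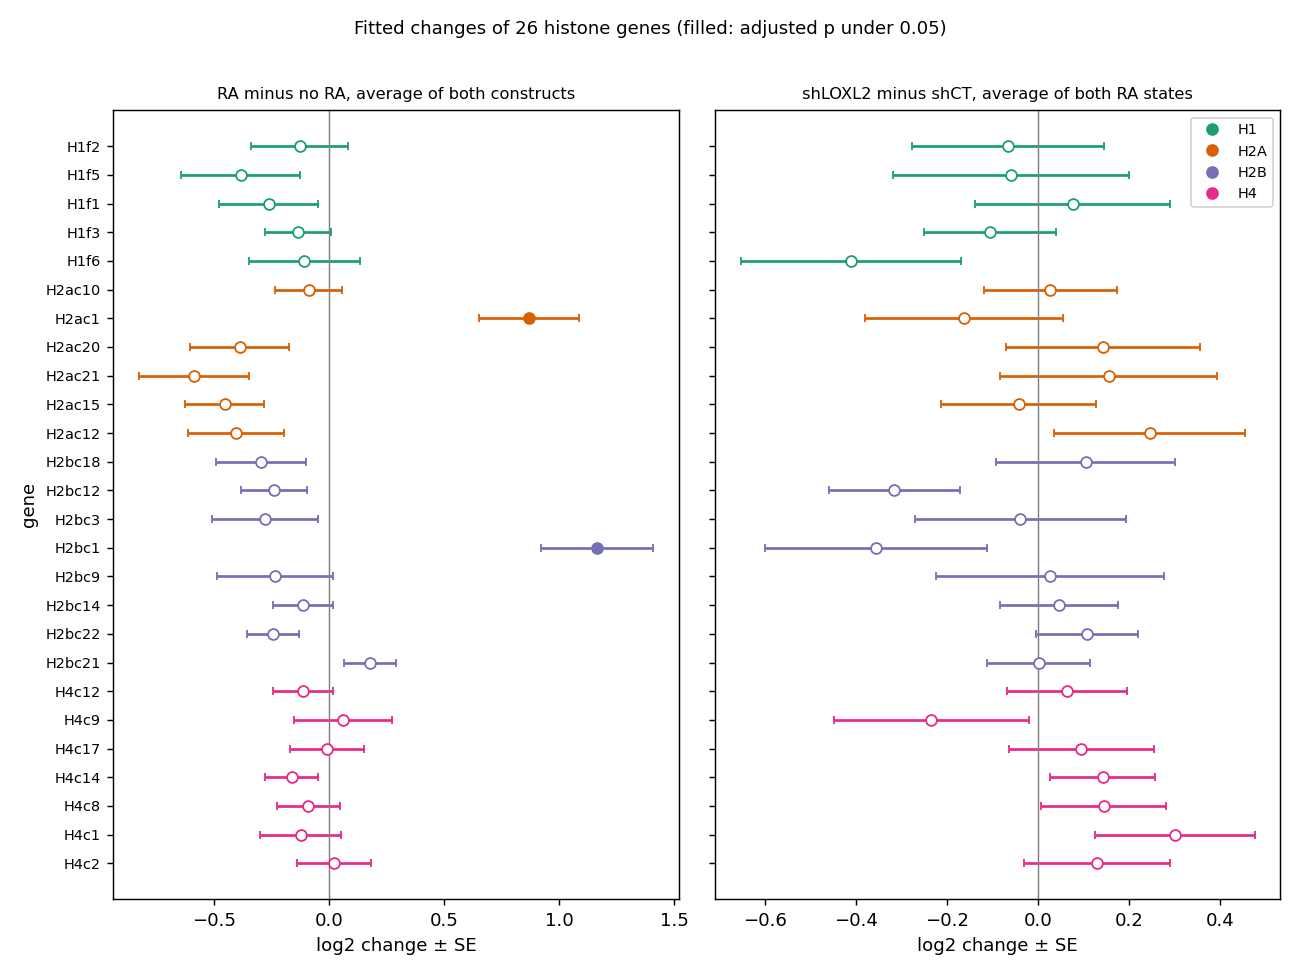
Fitted log2 changes (horizontal axes, with SE) of the 26 members (vertical axis, by class) for RA minus no RA on average of both constructs at left and shLOXL2 minus shCT on average of both RA states at right. Filled points pass an adjusted p of 0.05. H2ac1 (0.87) and H2bc1 (1.16) are the filled points at left, and no point is filled at right.

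LOXL2 knockdown changed no member past the threshold. On average of both RA states limma called 0 of 26 members, against 0.0541% of all genes (12 genes), and 1 member had an unadjusted p under 0.05 (6.72% of all genes). With RA 0 members passed (0% of all genes) and 1 had an unadjusted p under 0.05 (4.96% of all genes). Without RA 0 members passed (0% of all genes) and 0 had an unadjusted p under 0.05 (4.68% of all genes). The median change of the members on average was 0.0374, against 0.00273 for all genes, and 16 of 26 had a change above 0 (50.8% of all genes). That median had no settled sign: it ran from -0.0296 to 0.123 when 1 array was left out, and from -0.188 to 0.265 without RA and -0.0723 to 0.198 with RA. With array weights 2 members passed without RA (13% of all genes) and 1 on average, H2bc12 (4.52% of all genes).

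H2bc12 had the smallest p of the members. Its log2 signals were 7.32, 7.67 and 7.45 in shLOXL2 cells, against 7.83, 8.22 and 7.90 in shCT cells, both with RA. Without RA they were 7.5, 8.06 and 8.15 in shLOXL2 cells, against 7.83, 8.43 and 7.85 in shCT cells. The shLOXL2 arrays lay wholly below the shCT arrays with RA, in 1 of 26 members (5.88% of all genes), and overlapped with them without RA. The change was -0.50 ± 0.20 with RA and -0.13 ± 0.20 without, and -0.32 ± 0.14 on average (unadjusted p = 0.0468, limma adjusted p = 0.728). Its divergent neighbour H2ac12 changed by 0.25 ± 0.21.

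The testis genes had lower fitted values in shLOXL2 cells. H1f6 had 3.83, 4.56 and 4.59 in shLOXL2 cells, against 5.18, 4.68 and 4.33 in shCT cells, both with RA. Without RA it had 4.14, 4.62 and 4.54 in shLOXL2 cells, against 5.70, 4.72 and 4.11 in shCT cells. The groups overlapped in both RA states, and replicate 1 of shCT was the highest array in each. H1f6 changed by -0.41 ± 0.24 on average, H2bc1 by -0.36 ± 0.24 and H2ac1 by -0.16 ± 0.22 (limma adjusted p = 0.81, 0.86 and 0.964). For H1f6 and H2bc1 0 of 6 shLOXL2 arrays lay above the shCT mean of their RA state, a mean that includes the high replicate 1. The share of all genes for that count was not taken. Without RA these differences rested on replicate 1 of shCT. The change without RA was -0.41 for H1f6 and -0.33 for H2bc1 over all arrays, and 0.0125 and 0.0248 when that array was left out. With RA the change of H1f6 was -0.41 and ran from -0.609 to -0.159 when 1 array was left out. That of H2bc1 with RA was -0.38. Replicate 1 of shCT (8.55) was again the highest, and the other shCT arrays (7.74 and 7.33) lay on either side of the shLOXL2 arrays (7.47, 7.61 and 7.40).

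The H4 genes had mostly positive fitted changes with the knockdown, 6 of 7, with a median of 0.13. H4c1 changed by 0.30 ± 0.18 and H4c14 by 0.14 ± 0.12 (limma adjusted p = 0.81 and 0.904), and H4c9 by -0.23 ± 0.21. Of the H2A genes 4 of 6 and of the H2B genes 5 of 8 had changes above 0, and of the H1 genes 1 of 5. The difference between the RA responses of shLOXL2 and shCT cells passed limma's threshold in 0 of 26 members (0% of all genes), and 0 members had an unadjusted p under 0.05 (2.94% of all genes). The differences ran from -0.37 for H2bc12 to 0.484 for H2ac12, with a median standard error of 0.373. A p that misses the threshold leaves room for differences of that size.

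Arrays of 1 group varied more in the histone genes than in most genes. The SD over the 3 arrays of a group, averaged over the 4 groups, had a median of 0.362 log2 units over the members, against 0.182 over all genes, a ratio of 1.99. All 26 members lay above the median of all genes, and 16 lay above its 90th percentile. By class the median was 0.429 for H1, 0.416 for H2A, 0.336 for H2B and 0.297 for H4. The largest values belonged to H1f5 (0.533), H2bc9 (0.522) and H2ac21 (0.493), and the smallest to H2bc21 (0.184), H4c14 (0.191) and H2bc22 (0.193). Among genes at or above the median signal the value was 0.414 for 18 members and 0.17 for all 11090 such genes.

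The spread differed between groups. The median SD of the members was 0.237 in shLOXL2 cells with RA (0.168 over all genes), 0.407 in shLOXL2 cells without RA (0.179), 0.244 in shCT cells with RA (0.153) and 0.395 in shCT cells without RA (0.201). Both groups without RA thus had the larger values for the members, and the difference between groups was not tested. H1f6 had the widest range within a group, 1.58 log2 units in shCT cells without RA, followed by H2bc1 with 1.5 there. A range of 1.5 log2 units exceeds the change of H2bc1 with RA.

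**Figure D3:**
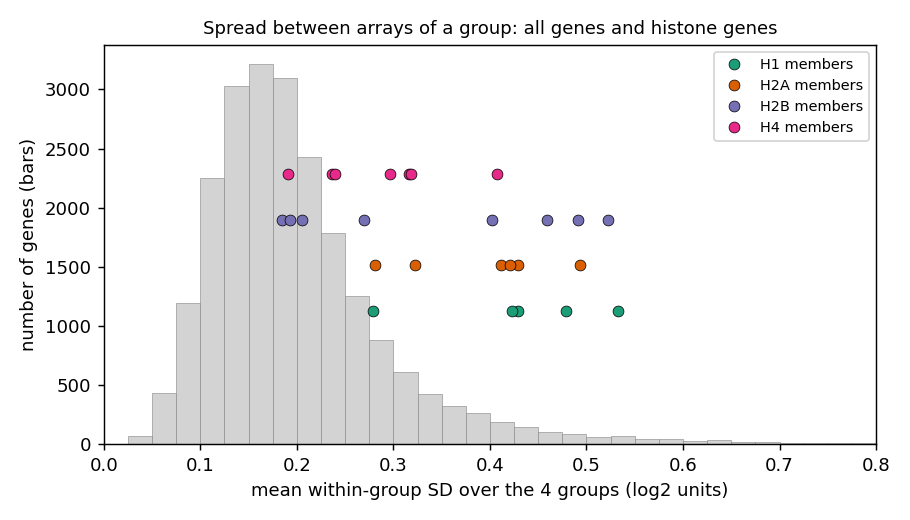
Mean within-group SD in log2 units (horizontal axis) of all 22180 genes as bars (vertical axis, number of genes) and of the 26 members as points set apart by class, where the height of a point carries no value. All members lie to the right of the all-gene median of 0.182, up to 0.533 for H1f5.

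In each group 1 array was low in most members. Replicate 1 of shLOXL2 without RA had a mean deviation from its group mean of -0.418 log2 units over the members and was the lowest of its group in 22 of 26, against 42.7% of all genes. Replicate 3 of shCT without RA had -0.364 and was lowest in 20 (43.4% of all genes). With RA, replicate 1 of shLOXL2 had -0.171 and was lowest in 19 (45% of all genes), and replicate 3 of shCT had -0.232 and was lowest in 19 (41.3% of all genes). The low array bore the same number with and without RA in each construct, and a different number in the constructs. The labels name no shared culture or day for a number. The shift was larger for H1 and H2A than for H4: in replicate 1 of shLOXL2 without RA the mean deviation was -0.58 for H1, -0.597 for H2A, -0.364 for H2B and -0.209 for H4.

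**Figure D4:**
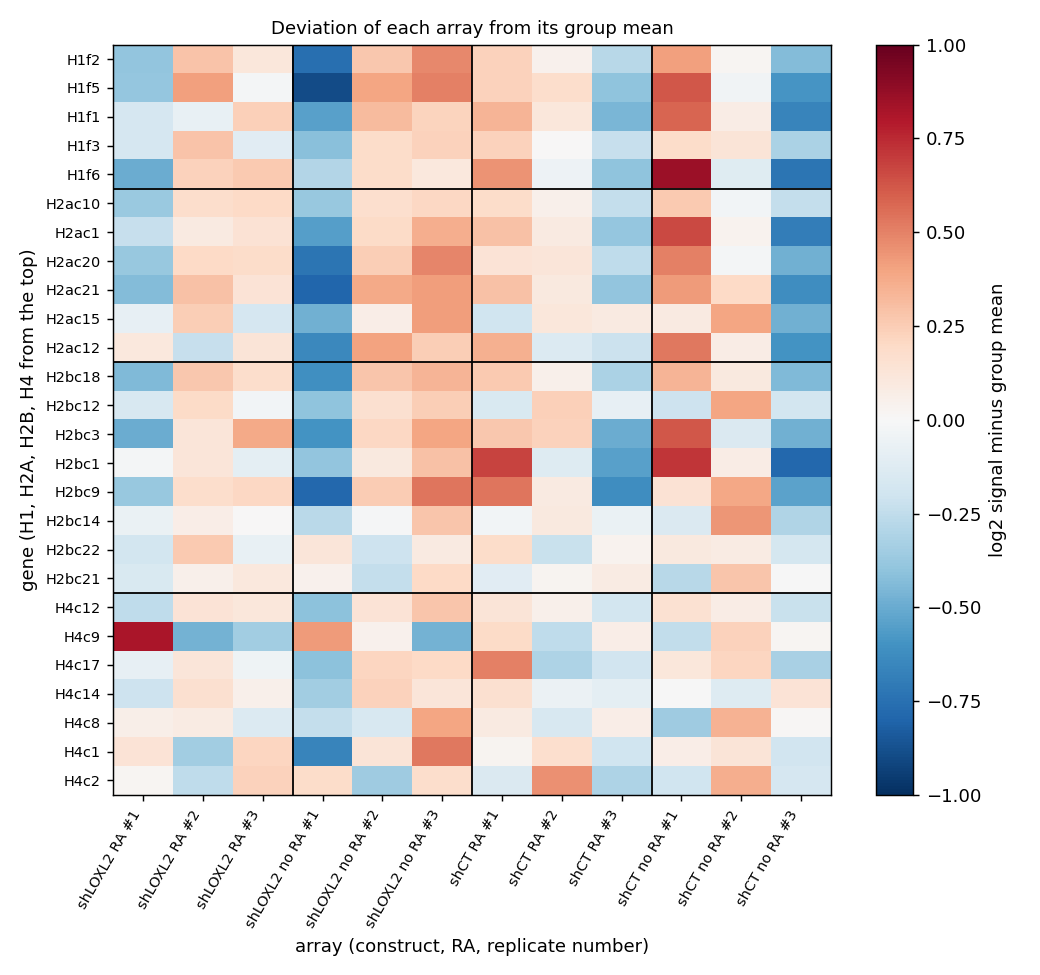
Deviation of each array (horizontal axis, 12 arrays by group) from its group mean in log2 units (colour, blue below and red above) for the 26 members (vertical axis, by class). Replicates 1 of shLOXL2 and 3 of shCT form blue columns in most H1, H2A and H2B genes with and without RA, and H4c9 runs the opposite way in the shLOXL2 groups.

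Most members deviated together over the 12 arrays. The median Pearson correlation between the deviations of 2 members was 0.591 over 325 pairs, of which 265 were above 0. With the mean deviation of the other members, 15 members correlated above 0.8, led by H2ac21 (0.982), H2bc18 (0.963), H4c12 (0.961) and H1f2 (0.956). H4c9 ran the opposite way (-0.575), and H2bc21 (-0.071), H4c2 (0.00398), H4c8 (0.197) and H2bc22 (0.249) were hardly related. Of these, H2bc21, H4c2 and H2bc22 were dim, with mean log2 signals of 3.70, 3.17 and 4.10, below every array median. H2ac1 (0.944) and H2bc1 (0.828) followed the other members within groups although they rose with RA. These correlations describe 12 arrays whose members share every array and their processing, and no p is given.

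Many other genes followed the same pattern. Of 22154 genes that are no members, 1939 (8.75%) correlated above 0.8 with the mean deviation of the members. The 10 most alike were Nelfe (0.995), a subunit of the negative elongation factor, Pus1 (0.991), a pseudouridine synthase, Thoc5 (0.988), of the THO complex of mRNA export, Cuedc2 (0.987), and Psmd4 (0.987), a ubiquitin receptor of the proteasome. They went on with Zfpl1 (0.986), a Golgi protein gene, Polr1c (0.986), a subunit of RNA polymerases I and III, Sirt6 (0.983), a deacetylase of chromatin, Rnu12 (0.98), a small nuclear RNA of the minor spliceosome, and Snx3 (0.98), a sorting nexin. Their own mean within-group SDs lay between 0.146 for Snx3 and 0.373 for Rnu12. The first axis of the deviations of all other genes held 49.4% of them, and the arrays low in histones had its 4 lowest scores, from -0.436 to -0.27. The sign of this axis was set to go with the members' mean deviation, so only the grouping of these arrays at 1 end comes from the other genes. The part of this axis in the histone values was not tested.

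Lists of genes around the histones moved to different degrees along the arrays. The mean deviation of 7 small nuclear or RNA polymerase III transcripts that lack a poly(A) tail, such as Rpph1 and Rny1, correlated at 0.976 with that of the members, with a median SD of 0.339. In replicate 1 of shLOXL2 without RA the mean deviation of this list was -0.443, and in replicate 3 of shCT without RA it was -0.403. The correlation was 0.861 for 37 genes of G1/S and DNA replication, although their deviations stayed between -0.0737 and 0.0608. It was -0.811 for 22 genes of G2/M, whose deviations ran from -0.219 to 0.19. The lists of histone chaperones (-0.66), stem cell markers (-0.64), histone variants (0.509) and histone pre-mRNA processing (-0.257), feeder fibroblast markers (0.664) and primitive endoderm markers (0.582) followed. RNA quality was not measured here, and which property of the samples sets this order was not tested.

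Genes that act on histone messages and proteins were compared with RA on average, for which 4.8% of all genes fell and 5.52% rose. Of 15 genes of histone pre-mRNA processing 2 fell and none rose: Zfp473 (-0.43 ± 0.12, limma adjusted p = 0.0326), a zinc finger protein of the processing complex, and Upf1 (-0.41 ± 0.12, limma adjusted p = 0.0377), a helicase that acts in histone mRNA decay. Lsm10, of the U7 particle, stood at -0.29 ± 0.10 (limma adjusted p = 0.099). Of 16 chaperone genes 1 fell, Chaf1b (-0.42 ± 0.12, limma adjusted p = 0.0437), a subunit of chromatin assembly factor 1. Of 37 genes of G1/S and replication 4 fell and none rose, led by Cdk2 (-0.48 ± 0.09, limma adjusted p = 0.00303), the initiation factor gene Mcm10 (-0.39 ± 0.09) and Orc1 (-0.37 ± 0.09) of the origin recognition complex. None of 22 G2/M genes and of 7 transcripts without poly(A) passed (smallest limma adjusted p = 0.0654 for Cdc25b and 0.31 for Terc).

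Replication-independent variants, which are made throughout the cell cycle, were compared too. Of 10 measured, 2 rose (5.52% of all genes) and none fell: Macroh2a2 (0.60 ± 0.13, limma adjusted p = 0.00862), a macroH2A of repressed chromatin, and H1f10 (0.43 ± 0.12, limma adjusted p = 0.0389), a linker histone. H2az1, the major H2A.Z gene, stood at -0.41 ± 0.16 (limma adjusted p = 0.132). Median changes of the lists were -0.0233 for processing, -0.0345 for chaperones, -0.0784 for G1/S and replication, 0.041 for G2/M and -0.023 for variants, against -0.00677 for all genes. For the knockdown on average none of these lists held a gene past the threshold. The smallest p there belonged to the chaperone gene Nap1l1 (-0.77 ± 0.15, limma adjusted p = 0.106), followed by H2az2 (-0.33 ± 0.08, limma adjusted p = 0.284) and Srrt (0.42 ± 0.11, limma adjusted p = 0.308).

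Clusters shared by several histone genes held the H3 genes and the copies that the array could not tell apart. There were 37, of which 30 were annotated to histone genes of the rule only, and they gave 34 distinct profiles. Of these 34, 30 had a lower fitted value with RA on average (54.7% of all clusters), with a median of -0.105 (-0.0225 over all clusters). For H3 there were 12, with a median change of -0.105 with RA (9 of 12 lower), -0.0031 with the knockdown, and a median within-group SD of 0.224 (0.207 over all clusters). The median correlation of the 34 profiles with the members' mean deviation was 0.798. Tested among all transcript clusters, 1 of 37 passed limma's threshold for RA on average (4.68% of all clusters), a cluster of 3 H2B genes, H2bc4, H2bc6 and H2bc8. None of the 37 passed in the other comparisons, where 1.29% of all clusters did for RA in shLOXL2 and 1.61% for RA in shCT cells.

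That cluster of H2bc4, H2bc6 and H2bc8 had log2 signals of 6.37, 5.91 and 5.86 in shLOXL2 cells with RA, against 5.35, 5.37 and 5.31 without. In shCT cells it had 6.74, 6.40 and 6.70 with RA, against 6.07, 5.87 and 6.42 without. The groups separated in shLOXL2 cells, where 10.3% of all genes lay wholly above, and overlapped by 1 array in shCT cells. It rose by 0.60 ± 0.13 with RA on average (limma adjusted p = 0.0193 over all clusters). The shLOXL2 arrays lay wholly below the shCT arrays in both RA states, with RA only by 6.37 against 6.40. Such separation was seen in 5.88% of all genes with RA and 4.04% without. Its share over all clusters was not counted. The change with the knockdown was -0.67 ± 0.13 on average, and it did not pass after adjustment (limma adjusted p = 0.28), although its unadjusted p of 0.000226 was smaller than that for RA (0.00054). The other cluster annotated to the same 3 genes changed by -0.08 ± 0.13 with RA and 0.01 ± 0.13 with the knockdown. The deviations of the 2 clusters correlated at -0.515 and 0.85 with those of the members.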

How the data were processed

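Per the labels' protocols, Trizol was used to extract total RNA from E14 cells, and labelling of 100 ng per sample followed the Affymetrix method for whole-transcript sense targets. The authors deposited log2 signals per transcript cluster, with a column for each array. The submitters' processing notes list RMA, limma and R 3.1.1 without saying what each did. No scanner files were used here, so background correction and normalization were not checked, and a shift common to most genes would not appear in these values.

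Clusters were named through the platform annotation, with symbols and older names taken from a RefSeq table: of 41345 clusters, 23521 had 1 gene, 1814 several and 16010 none, and 23328 of those with 1 gene matched. The brightest cluster stood for a gene, which left 22180 genes. Tests used limma 3.58.1 under R 4.3.3, with statmod 1.5.0, in 1 fit over 12 arrays with 1 mean per group, and p-values were adjusted over all genes by the Benjamini-Hochberg method at a threshold of 0.05. Changes are RA minus no RA and shLOXL2 minus shCT, with standard errors of this fit. Clusters shared by several genes, among them those of Loxl2, were fitted among all 41345 clusters, with p-values adjusted over these. The number of arrays limits the precision. The fit was tested on simulated data with noise drawn separately for each gene and array. Deviations shared by many genes or by arrays of the same number were not simulated, so that test does not cover them.

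The set of members was proposed, and the gene lists and tests were chosen, with earlier results of these data known, although the rule for members reads only symbols. Genes were named by a rule: per comparison the members past the threshold or the 5 with the smallest p, the brightest member of a class, the 3 largest and 3 smallest spreads, the testis-type and replication-independent members, up to 3 genes with the smallest p per list, the 10 genes most like the members, and Loxl2. Other members are named to account for all of them. Alternatives tried were a block of replicate number, a random block of construct and number, a variance trend, leaving out dim genes, further normalizations, the mean of clusters, only the groups compared, array weights, all clusters, a minimum fold of 1.2 and leaving out each array. A fixed block of construct and number, and the axis within groups as a covariate, were added after seeing the data. The axis comes from deviations from the group means, so it alters the standard errors and not the fitted changes.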

Additional observations from a re-analysis of the deposited data

Results flagged for a closer look

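A cluster annotated to H2bc4, H2bc6 and H2bc8, which lies outside the gene table because several genes share it, rose by 0.60 ± 0.13 log2 units with RA on average (limma adjusted p = 0.0193 over all clusters). It drew attention as a signal outside the main measurement. Of the 37 shared clusters tested it was the only 1 that passed, against 4.68% of all clusters. The other cluster annotated to the same genes changed by -0.08 ± 0.13 with RA on average, so a rise of these genes rests on 1 of their clusters.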

How the results depend on the processing

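For RA on average the number of members called was 2 as reported (10.3% of all genes). A random block of construct and number gave 4 (17.5%, consensus correlation 0.323) and array weights gave 8 (26.9%). It was 0 with a fold of at least 1.2 (2.55%), 5 with a fixed block of construct and number (16.6%) and 8 with the axis as a covariate (20.6%). The count ran from 1 to 4 when 1 array was left out. For fits without 1 array the share of all genes was not counted, here and in single constructs. Both testis-type genes were among those that rose in each of these settings except the fold minimum (adjusted p = 0.0509 for H2bc1 and 0.202 for H2ac1) and the fits without 1 array named beside H2ac1. The further calls were all falls. H2ac1 also missed the threshold among all transcript clusters (adjusted p = 0.0645). For RA in shCT the count was 0 as reported (4.25% of all genes), 2 with the random block (9.23%) and 7 with array weights (23.6%). It was 3 with the fixed block (8.12%) and 3 with the axis (11.1%). With 1 array left out it was 0 to 2 (2 without replicate 1 of shCT without RA). For RA in shLOXL2 the count was 0 as reported (3.46% of all genes), 2 with the random block (7.55%) and 1 with only the groups compared (2.61%). It was 4 with array weights (12%), 3 with the fixed block (7.32%) and 4 with the axis (9.96%). With 1 array left out it was 0 to 1 (1 without replicate 1 or 3 of shCT without RA). With array weights, which spanned a wide range, the knockdown gave 2 members without RA (13% of all genes). On average it gave 1 (H2bc12, limma adjusted p = 0.0498, 4.52% of all genes). The cause of these moves was not tested.

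Fitted knockdown changes without RA turned sign when 1 array was left out for H1f6 (-0.779 to 0.0125), H2bc1 (-0.726 to 0.0248), H2ac20 (-0.0162 to 0.592, negative values at -0.0128 and -0.0162) and H4c8 (-0.00801 to 0.362, and -0.166 with array weights), as did the difference between the RA responses for H4c1 (-0.0767 to 0.517). None of these had passed. The median change of the members kept its sign without any 1 array for RA on average and in each construct, and turned sign for the knockdown on average, without RA and with RA and for the difference between the RA responses (-0.192 to 0.238). The median spread of the members ran from 0.287 to 0.401 with 1 array left out.

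Over all genes, deviations of the same replicate number with and without RA correlated at 0.558, 0.248 and 0.216 in shLOXL2 and 0.363, 0.0394 and 0.631 in shCT. Over the members the values were 0.619, 0.284 and 0.446 in shLOXL2 and 0.654, 0.116 and 0.743 in shCT, all above 0.1. Between shLOXL2 and shCT they ran from -0.548 to 0.197 over all genes and from -0.603 to 0.0431 over the members. The reported fit has no block because the labels name no batch and tie no number to a culture. Within constructs the correlations over all genes were all above 0, with 1 under 0.1. The blocks of construct and number above allow for pairing within constructs. With the replicate block the count for RA on average stayed at 2 (adjusted p = 0.00975 for H2bc1 and 0.0399 for H2ac1) and those of the other comparisons stayed at 0.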

Other observations

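Shared clusters extended the description to copies that had no cluster of their own. Among distinct profiles, all 5 of H4 genes had lower fitted values with RA on average (median -0.207, median within-group SD 0.42), as had 9 of 9 of H2A genes (median -0.117, median SD 0.323) and 6 of 7 of H2B genes (median -0.0806, median SD 0.194). With LOXL2 knockdown the medians were 0.0506 for H4, 0.0527 for H2A and -0.0007 for H2B. Apart from the H2bc4, H2bc6 and H2bc8 cluster, none of these passed limma's threshold in any comparison.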
